A study of Gallus gallus with 3 samples.

Results

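Cranial neural crest cells (NCC) of the HH9 chicken embryo were compared with trunk NCC on 1 Affymetrix chicken genome array a side, out of 3 arrays in the series. HH9 and the other stage names count the Hamburger and Hamilton stages of chick development. The comparison took 2 arrays, the one titled HH9 and the trunk one titled HH16, and for each probe set the signal on HH9 was divided by the signal on the array titled HH16. Both sides were chicken cells that carry the HNK1 epitope, a surface carbohydrate of migrating NCC, and were collected with it on magnetic beads, and the labels name no allele and no treatment for either. The HH9 cells came from the heads of pooled embryos, severed where midbrain meets hindbrain and freed of neural tube and notochord. The trunk cells came from explants at somite levels, for which the methods describe removal of ectoderm and notochord with Dispase and the results also that of the neural tube. The array titled HH16 carries HH19 in its age field, the array titled HH19 carries HH16 there, and the description gives HH16 for both. The source name of the HH9 array says trunk, and it is taken as cranial from the methods. Axial level, stage and dissection therefore differed together between both sides and cannot be told apart. With 1 array a side there is no spread between replicates, no p-value was computed, and every fold below describes these 2 arrays.

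NCC arise at the border of the neural plate, leave the neural tube by an epithelial to mesenchymal transition and migrate along set pathways. Cranial NCC form much of the cartilage, bone and connective tissue of the face besides neurons, glia and pigment cells, whereas trunk NCC give sensory and sympathetic ganglia, Schwann cells, adrenal medulla and melanocytes and normally make no skeleton. HOX genes are transcription factor genes in 4 clusters whose paralog number runs with their anterior limit along the body axis, and midbrain NCC carry none of them. In these bulk RNA samples, fewer cells of a type and less RNA per cell cannot be told apart.

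The values were MAS5 signals, a linear brightness per probe set, and each array had a trimmed mean near 500.1. Dim signals were lifted to a floor of 99.8, which is the 40th percentile over the 3 arrays. Where only one of both signals reached the floor the fold is a minimum, written "at least", and a gene that reached it on neither array has no fold. A minimum under 2-fold does not mean that the signals differed by less than 2-fold, and the largest ratios named below are those at this floor. Where 3 signals follow a gene they stand in the order HH9, trunk titled HH16, trunk titled HH19, and the last array entered no fold. The floor was reached by 22610.0 probe sets on HH9, 23437 on titled HH16 and 23143 on titled HH19. The median signal was 141 on HH9 and 158 on the array titled HH16, so centring the arrays on their medians would move every gene above the floor up by 0.16 on the log2 scale on HH9. The 9 hybridization spike-in probe sets were 1.005-fold to 1.33-fold brighter on HH9, with a median of 1.16-fold. The 3'/5' signal ratios, a sign of RNA integrity, were 0.898 and 0.934 for actin, 0.950 and 1.02 for GAPDH and 1.53 and 1.32 for EF1A on HH9 and titled HH16.

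Several crest markers were bright on both arrays. SOX10, the transcription factor of migrating NCC, gave a signal of 12315 on HH9, 15746 on trunk titled HH16 and 17338 on trunk titled HH19. TFAP2A, an activator of the crest program, gave 2036, 2623 and 1781. Of 14 crest markers 13 were named on the array and had a ratio, and their summed signal was 41208 on HH9, 37498 on titled HH16 and 37276 on titled HH19. Single markers did differ, with 4 of the 13 at least 2-fold higher on HH9 and 2 lower. B3GAT1, whose enzyme makes the HNK1 epitope, differed by 1.35-fold (415, 308 and 269.6). On HH9 all 13 markers reached the floor, and on titled HH16 12 did, with SOX9 at 97.8 just short of it.

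Of 38439 probe sets 25157 had a ratio. At least 2-fold higher on HH9 were 721, which is 2.87% of them, and 1704 were at least 2-fold lower, which is 6.77%. Among 13016 named genes 10717 had a ratio, 2299 were under the floor on both arrays, 341 genes (3.18%) were at least 2-fold higher on HH9 and 726 (6.77%) at least 2-fold lower. These shares are the background for each list below. The median log2 ratio over all genes with a ratio was 0.01. At 4-fold or more there were 62 higher and 178 lower genes, at 8-fold or more 19 and 58, and at 16-fold or more 4 and 24. Genes higher on HH9 thus made up 31.96% of the 2-fold genes as deposited, and 46.07% (498 against 583) once each array was centred on its median. Of the probe sets past 2-fold, 29.73% were higher on HH9 as deposited, 44.49% after centring and 40.14% after quantile normalization.

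**Figure D1:**
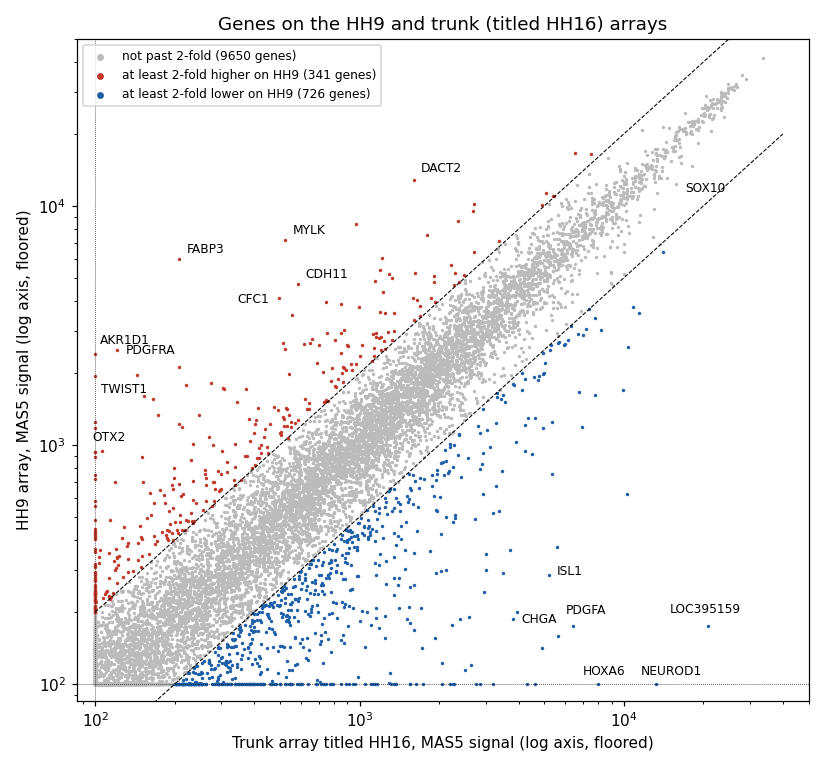
Each point is 1 of 10717 genes, with its MAS5 signal on trunk titled HH16 (x) and HH9 (y), both on log axes with dim signals lifted to the floor (dotted lines). Dashed lines mark 2-fold. FABP3, PDGFRA and TWIST1 lie far above them, NEUROD1, LOC395159 and HOXA6 far below, and SOX10 lies between them.

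Probe sets of 1 gene mostly ran the same way, though they share the RNA and are no replicates. Among the 341 higher genes 156 had at least 2 probe sets with a ratio. In 126 of these every such probe set was higher on HH9, in 42 every one by at least 2-fold, and in 0 was another probe set 2-fold lower. Among the 726 lower genes 381 had at least 2, of which 342 had all of them lower, 144 all by at least 2-fold and 2 had 1 that was 2-fold higher. Lower bounds made up 72 of the higher and 167 of the lower genes. At the edge of the threshold, RASL11A (2.00-fold) and NOB1 (1.999-fold) lay on both sides of 2-fold among higher genes, and PDE6D (2.00-fold) and FBXL20 (1.999-fold) among lower genes.

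HOX genes of paralogs 1 to 5 were the one list of 39 in which every member with a ratio was past 2-fold. Of 15 that were listed 10 were named on the array, and all 10 were at least 2-fold lower on HH9, with a median log2 ratio of -3.62. On HH9, 9 of these 10 lay under the floor, and on the array titled HH16 all 10 lay above it. The HOXD4 signal was 26.1 on HH9, 3190.1 on trunk titled HH16 and 3699.7 on trunk titled HH19, at least 32.0-fold lower on HH9. The other probe set of HOXD4 had a log2 ratio of -1.41. HOXA4 (31.7, 2869 and 3006) was at least 28.7-fold lower, HOXB1 (97.5, 2751 and 4809.9) at least 27.6-fold and HOXB3 (72, 2280.2 and 3474) at least 22.8-fold. HOXB1 had 4 probe sets with a ratio, with log2 ratios from -4.78 to -0.42. HOXB2 was the one gene of these paralogs above the floor on HH9, with a signal of 106 on HH9, 989 on trunk titled HH16 and 1921 on trunk titled HH19, a fold of 9.30. HOXB5, HOXA2, HOXA3, HOXB4 and HOXA5 were lower by at least 13.5-fold, at least 11.2-fold, at least 9.44-fold, at least 6.40-fold and at least 3.90-fold, and on HH9 their signals ran from 39.9 for HOXB5 to 83.6 for HOXA5. Both trunk arrays lay above HH9 for each of these genes.

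HOX genes of paralogs 6 to 13 held 24 listed genes, of which 19 were named on the array and 11 had a ratio. Lower on HH9 by at least 2-fold were 7 of these 11, higher were 0, and the median log2 ratio was -2.20. The HOXA6 signal was 16 on HH9, 8002 on trunk titled HH16 and 6856 on trunk titled HH19, at least 80.1-fold lower on HH9. HOXB7 (123, 2046 and 2049.7) was 16.7-fold lower, HOXA7 (73.3, 1557 and 1284) at least 15.6-fold, HOXB6 (10.9, 1102 and 1177) at least 11-fold and HOXC9 (4.97, 853 and 459.8) at least 8.55-fold. HOXB8 and HOXD8 were lower by at least 4.59-fold and at least 3.47-fold. HOXA9 was at least 1.92-fold lower (38.3, 192 and 136) and HOXD11 at least 1.14-fold higher (114, 80.2 and 113), both minimums, while HOXA10 (404, 421 and 398) and HOXC13 (139, 129.5 and 125) differed by less than 2-fold. The other 8, HOXA11, HOXA13, HOXB13, HOXC8, HOXC11, HOXD10, HOXD12 and HOXD13, were under the floor on both arrays. HOXC9 thus had the highest paralog number of the genes past 2-fold.

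**Figure D2:**
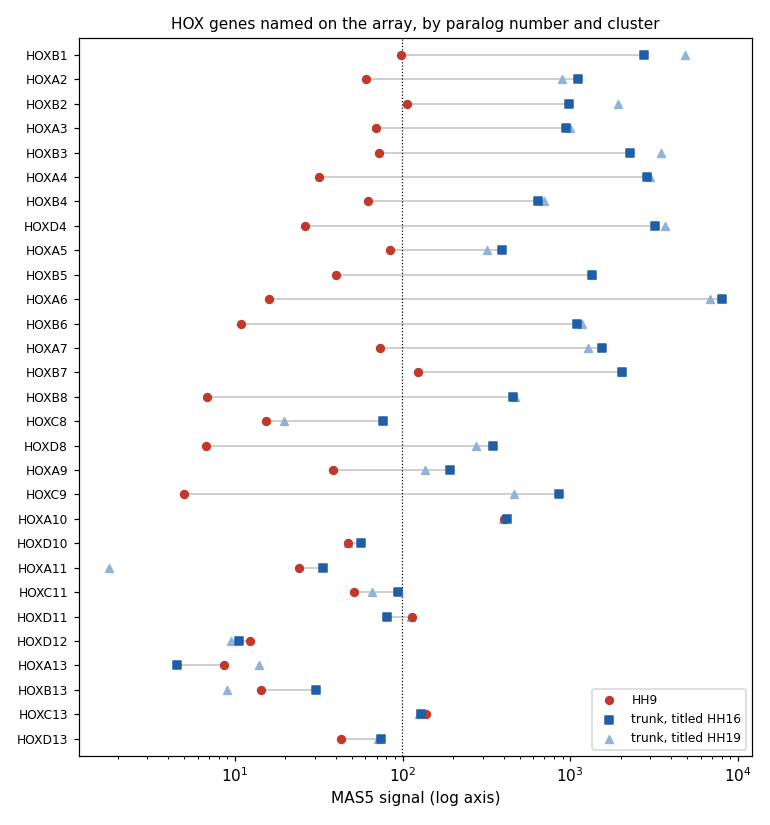
MAS5 signals (log axis) of the 29 HOX genes named on the array, ordered by paralog number, on the 3 arrays, with a grey line joining HH9 and trunk titled HH16 and a dotted line at the floor of 99.8. HH9 lies at or below 123, the HOXB7 signal, for every gene of paralogs 1 to 9, with both trunk arrays to its right, while the genes of paralogs 10 to 13 lie close together on the 3 arrays or under the floor.

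Anterior factors were higher on HH9 in a few cases. Of 28 listed head and anterior neural factors 21 were named and 15 had a ratio, with 3 at least 2-fold higher on HH9 and 1 lower. OTX2, the homeobox gene of forebrain and midbrain, gave a signal of 1243 on HH9, 91.1 on trunk titled HH16 and 43 on trunk titled HH19, at least 12.4-fold higher on HH9. ZIC2, a zinc finger gene of the dorsal neural tube and head, was 2.44-fold higher (2818, 1154 and 2817), and here the array titled HH19 was as bright as HH9. CYP26C1, a retinoic acid degrading enzyme of the anterior embryo, was 3.23-fold higher (407, 126 and 54.5). ZIC1 was at least 2.36-fold lower on HH9 (39.4, 236 and 641). GBX2, which marks the hindbrain side of the midbrain boundary, fell just short of 2-fold (1063, 538 and 712). SIX3 (117, 10.9 and 14), TBX1 (100, 30.9 and 123) and DMBX1 (100, 44.7 and 15.2) were at or just above the floor on HH9, and LHX2, NKX2-1, SIX6, VAX1, FEZF2 and EMX2 were under it on both arrays.

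Crest specifiers, the transcription factors that set up the crest program, split in both directions. All 23 listed genes had a ratio, 8 were at least 2-fold higher on HH9 and 4 lower, and the median log2 ratio was 0.30. TWIST1, which drives mesenchymal character in cranial crest, gave a signal of 1941 on HH9, 15.2 on trunk titled HH16 and 516 on trunk titled HH19, at least 19.4-fold higher on HH9. MYC was 4.24-fold higher (4845, 1143 and 2390.0), SNAI2 3.79-fold higher (3776, 997 and 1206) and SOX8 3.76-fold higher (5006, 1330.4 and 569). SNAI2 is the repressor of cell adhesion in crest emigration, and SOX8 belongs with SOX9 and SOX10 to the SOXE factors. SOX9 was at least 4.05-fold higher (404, 97.8 and 278), SNAI1 at least 3.12-fold (311, 87.5 and 449), ID3 2.91-fold (2614, 898 and 1254) and ETS1, a factor of cranial rather than trunk crest in the chick, 2.20-fold (2065, 937 and 1347). ETS1 had 3 probe sets with a ratio that did not run together (log2 ratios from -0.34 to 1.14).

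Lower on HH9 among the specifiers were TFAP2C, MSX2, ZEB2 and NGFR. TFAP2C, an AP-2 factor, gave a signal of 18.8 on HH9, 1146 on trunk titled HH16 and 933 on trunk titled HH19, at least 11.5-fold lower on HH9. ZEB2, a repressor of epithelial genes, was 2.48-fold lower (1986, 4926 and 5846), MSX2, a BMP target, 2.90-fold (185, 535 and 1935) and NGFR, the neurotrophin receptor p75 used to sort crest, 2.40-fold (189, 453 and 289). The other 11 differed by less than 2-fold. PAX3 (933, 1814 and 1691) and TFAP2B (10210.5, 5208 and 5712) came close to it in opposite directions, and MSX1 (1225, 1223 and 1217) and PAX7 on the first 2 arrays (649, 609.7 and 2319.9) were near equal. TWIST1, SOX9, SNAI1 and TFAP2C were each under the floor on one of both arrays, so their folds are minimums.

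**Figure D3:**
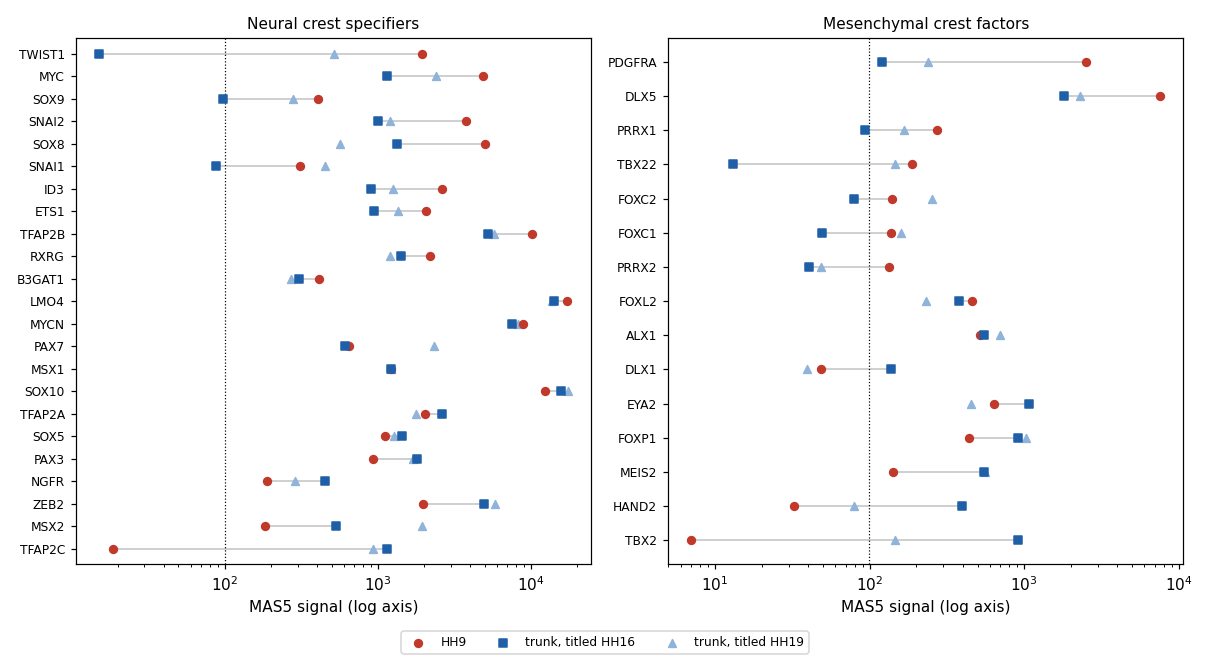
MAS5 signals (log axis) of the 23 neural crest specifiers and the 15 mesenchymal crest factors with a ratio, sorted by the log2 ratio of HH9 over trunk titled HH16, on the 3 arrays, with the floor as a dotted line. TWIST1 and PDGFRA head the panels with HH9 far to the right, TFAP2C and TBX2 close them with HH9 far to the left, and SOX10, MSX1 and LMO4 sit close together.

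Mesenchymal crest factors gave the same mixed picture. Of 30 listed genes 25 were named and 15 had a ratio, 3 higher and 4 lower on HH9. PDGFRA, the PDGF receptor of head mesenchyme, gave a signal of 2499 on HH9, 121 on trunk titled HH16 and 237 on trunk titled HH19, 20.7-fold higher on HH9. DLX5, a homeobox gene of the pharyngeal arches and of the ectoderm at the neural plate border, was 4.19-fold higher (7568, 1807 and 2292), though its other probe set had a log2 ratio of -0.66. PRRX1, a homeobox gene of limb and head mesenchyme, was at least 2.73-fold higher (272, 93.4 and 167). TBX2 was at least 9.13-fold lower (7.03, 912 and 146), HAND2 at least 3.97-fold (32.5, 396 and 79.5), MEIS2 3.84-fold (142, 546 and 560.0) and FOXP1 2.08-fold (442, 918 and 1035). HAND2 is also a sympathetic neuron factor. ALX1, a factor of frontonasal crest, differed by 1.06-fold (521, 551 and 702), and BARX1, DLX3, DLX6, HAND1, ALX4, EYA1, EYA4, FOXF1, TBX3 and TCF21 were under the floor on both arrays.

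Among PDGF genes, both receptors and the ligand PDGFA ran in opposite directions. PDGFRA was higher on HH9, as given above, and so was PDGFRB, the second PDGF receptor, with a signal of 702 on HH9, 118 on trunk titled HH16 and 376 on trunk titled HH19 (5.93-fold). PDGFA, a ligand of PDGFRA, ran the other way with a signal of 175 on HH9, 6452 on trunk titled HH16 and 5358 on trunk titled HH19, 37.0-fold lower on HH9. The other ligands PDGFC, PDGFB and PDGFD did not pass 2-fold (log2 ratios of 0.63, 0.18 and -0.20). The neuropilins, co-receptors for VEGF and class 3 semaphorins, also split. NRP2 was 3.01-fold higher on HH9 (3601, 1197 and 1795) and NRP1 10.2-fold lower (363, 3719.8 and 3756). VEGFD was 6.34-fold lower (529.8, 3362 and 911) and the VEGF receptor KDR 2.35-fold lower (125, 294 and 355). In all, 3 of 15 PDGF and VEGF genes were at least 2-fold higher and 4 lower.

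Among 5 endothelin genes with a ratio 2 were lower on HH9 and 0 higher. EDNRB2, the endothelin receptor of chick melanoblasts, was 22.1-fold lower on HH9 (119.9, 2645 and 90.1), but here the array titled HH19 lay with HH9. EDNRB, the receptor of early and neural crest, was 2.36-fold lower (3048, 7200.0 and 4325). Of 6 chemokine genes with a ratio CXCR4, the receptor for CXCL12, was 4.22-fold higher (2781, 659.5 and 668), CXCR7, its scavenging partner, 2.02-fold lower (329.8, 664 and 1042), and CXCL12 differed by 1.45-fold (430.3, 624 and 654).

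ID1, ID2 and ID3, BMP target genes that encode inhibitors of basic helix-loop-helix factors, were higher on HH9. MSX2, also named above as a BMP target, was lower. ID1 gave a signal of 8367 on HH9, 972 on trunk titled HH16 and 3440.4 on trunk titled HH19, 8.61-fold higher, ID3 was higher as given above, ID2 was 2.19-fold higher (16487, 7524 and 12165) and ID4 differed by 1.26-fold (2838, 2245 and 2069.9). NOG, a secreted BMP antagonist, was at least 2.46-fold higher (246, 79.2 and 162). The ligands BMP2 (264, 169 and 178) and BMP7 (568, 616 and 859) differed by less than 2-fold, and BMP4 was at least 1.33-fold higher (132, 80.6 and 152). The receptors BMPR2 and TGFBR3 were 2.42-fold and at least 2.93-fold lower on HH9 (167, 404 and 317 for BMPR2, 84.5, 292 and 213 for TGFBR3). Over the whole list 4 of 31 genes with a ratio were higher and 2 lower, with a median log2 ratio of 0.00.

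WNT genes held 54 listed members, 50 named and 32 with a ratio, 3 higher and 4 lower on HH9. FZD7, a WNT receptor, was 4.59-fold higher (3897, 848 and 1193), the WNT5A receptor ROR1 2.44-fold (4042, 1654 and 2074) and the secreted antagonist FRZB 2.04-fold (11014, 5384 and 6031). Lower were NOTUM, which inactivates WNT proteins, by 8.63-fold (179.6, 1551 and 2326), the receptor FZD4 by 4.87-fold (676, 3291 and 1502), APCDD1, an inhibitor, by at least 4.10-fold (67.8, 409 and 245) and LEF1, the nuclear effector, by 2.09-fold (1408, 2943 and 3690.1). The WNT target AXIN2 differed by 1.28-fold (498, 638 and 651). WNT1 and WNT3A, ligands of the dorsal neural tube, were under the floor on both arrays. DACT2, an intracellular modulator of WNT and TGF-beta signaling that stood outside the list, was 7.99-fold higher on HH9 (12886, 1614 and 3192) and among the 20 genes with the largest ratio.

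In the FGF list of 31 genes 21 had a ratio, 1 was higher and 3 lower on HH9. FGFR2 was 4.03-fold higher (798, 198 and 886) and FGFR3 2.12-fold lower (2689, 5686 and 3964), with SPRY1, a feedback inhibitor, 2.23-fold lower (101, 226 and 134) and FGF19 2.07-fold lower (136, 283 and 246). The feedback genes DUSP6 (1845, 1819 and 1067) and SPRY2 (790.4, 762 and 409) were near equal on HH9 and titled HH16. FGFR2 on the array titled HH19 was as bright as on HH9, so that gene set apart the array titled HH16.

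Retinoic acid genes were mostly lower on HH9 where they passed 2-fold. Of 17 with a ratio 4 were lower and 1, CYP26C1, was higher. DHRS3, a retinal reductase induced by retinoic acid, gave a signal of 40 on HH9, 2255 on trunk titled HH16 and 3706 on trunk titled HH19, at least 22.6-fold lower on HH9. The other probe set of DHRS3 had a log2 ratio of -0.59. CRABP1, a cellular retinoic acid binding protein of migrating crest, was 4.28-fold lower (1252, 5359.9 and 6620.5), NRIP1, a nuclear co-repressor, 2.44-fold (2875, 7013 and 8342) and CYP26B1 at least 2.02-fold (98.3, 202 and 584). RARB, itself a retinoic acid target, differed by 1.61-fold (1681, 2701 and 3968), and ALDH1A2, the synthesizing enzyme of somites, by 1.88-fold (254, 478 and 1442). For DHRS3, CRABP1, NRIP1 and CYP26B1 both trunk arrays lay above HH9.

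Of 18 Notch genes with a ratio 4 were lower on HH9 and 0 higher. DLL1, a ligand on cells entering neurogenesis, gave a signal of 299 on HH9, 3014 on trunk titled HH16 and 3619.7 on trunk titled HH19, 10.1-fold lower on HH9, and HES6, which goes with neuronal commitment, gave a signal of 187 on HH9, 2392 on trunk titled HH16 and 2108 on trunk titled HH19, 12.8-fold lower. DTX4 was at least 4.19-fold lower (75.5, 418 and 466) and the receptor NOTCH1 2.21-fold (954, 2106 and 1481). HEY1 (2838, 3889.6 and 1648), HES5 (183, 257 and 258) and NOTCH2 (4398, 4204 and 4689) differed by less than 2-fold. In the hedgehog list CDON, a co-receptor, was 5.22-fold higher on HH9 (2676, 512 and 893) and HHIP, a target that binds the ligand, 2.76-fold lower (119.8, 330.1 and 479), while PTCH1 differed by 1.50-fold (1257, 1879 and 2188). In the IGF list IGFBP2, IGFBP4 and IGFBP7, which bind IGF outside the cell, were lower by 6.51-fold (192, 1250.5 and 1601), 2.50-fold (568, 1421 and 1226) and 2.25-fold (399.9, 898 and 606), and 0 of the 10 with a ratio were higher.

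Extracellular matrix genes, by count, held the most members higher on HH9 among the 39 lists, 14 of 52 with a ratio, against 3 lower. HAPLN1, which links hyaluronan to proteoglycans, was at least 11.8-fold higher (1175, 79.6 and 159), OLFML3 8.08-fold (1777, 219.9 and 1252), COL1A1 5.38-fold (1330.5, 247 and 839), COL9A1 5.01-fold (6075, 1213 and 684) and COL4A5 4.51-fold (5407, 1198 and 1479). FBLN2, COL5A1 and COL9A2 were higher by 3.75-fold, 3.54-fold and 3.48-fold (862, 229.9 and 368 for FBLN2, 4347, 1229 and 2068 for COL5A1 and 677, 195 and 143 for COL9A2). COL2A1, the fibrillar collagen of cartilage and of early embryonic epithelia, was 2.55-fold higher (16627, 6513 and 8760.0). Lower were LAMA4, a laminin chain, by at least 20.6-fold (77.5, 2057 and 419.6), COL1A2 by 2.87-fold (3786, 10879 and 4653) and NID1 by 2.06-fold (1996, 4106 and 4506). COL1A1 and COL1A2, both chains of type I collagen, thus ran in opposite directions. FN1 (6377, 5009 and 5589), VCAN (2494, 1986 and 1584) and LAMC1 (10121, 10023 and 8604) differed by less than 2-fold. Outside the list, MATN4 (9.39-fold), COL27A1 (8.91-fold) and CYTL1 (at least 8.90-fold) were among the 20 largest ratios on the HH9 side, with 1554, 166 and 105 for MATN4, 944, 106 and 144 for COL27A1 and 889, 82.3 and 97.9 for CYTL1.

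The cadherin set exchanged members between the sides. CDH11, a cadherin of mesenchyme and cranial crest, gave a signal of 4694 on HH9, 584 on trunk titled HH16 and 810.0 on trunk titled HH19, 8.03-fold higher on HH9, and CDH3 (P-cadherin) was 4.85-fold higher (2530.0, 521 and 1631). CDH7, the cadherin of migrating trunk crest in the chick, was 3.16-fold lower (929, 2935 and 2498), CDH2 (N-cadherin) 2.92-fold (884, 2580.2 and 2121), CDH19, of Schwann cell precursors, 2.69-fold (165, 443 and 194) and PCDH8 3.67-fold (155, 570.0 and 390.1). With CDH23 higher (245, 110.5 and 54.6) and PCDH1 (779.5, 2173 and 1453) and CDH4 (124, 270.2 and 123) lower, 3 of 22 were higher and 6 lower. CDH6, a cadherin of premigratory crest, was under the floor on both (51.6, 44.1 and 122).

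Among integrins 1 of 13 was higher and 4 lower on HH9. ITGB3 was 3.55-fold higher (9539, 2688 and 3388). The laminin receptor chain ITGA6 was 3.55-fold lower (1297, 4608 and 4192), ITGA7 2.34-fold (144, 337 and 188), ITGA1 2.22-fold (144, 319 and 166) and ITGAV, a partner of ITGB3, 2.18-fold (575, 1255 and 1256). ITGB1 (8477, 9270.1 and 9252) and ITGA4 (2984, 4313 and 4949.7) differed by less than 2-fold. Of 25 proteases and inhibitors with a ratio 1, ADAMTS15, was higher (645, 297 and 200.3, 2.17-fold), and 4 were lower. ADAM12, a metalloprotease, was 6.12-fold lower (189, 1158 and 362), TIMP3, an inhibitor of such enzymes, 4.86-fold (129, 627 and 756), ADAMTS5 at least 4.83-fold (6.09, 483 and 215) and ADAMTSL1 3.12-fold (478, 1494 and 1945).

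Guidance genes past 2-fold lay higher on HH9 among Eph receptors and ephrins, and mostly lower among semaphorin, Slit and netrin genes. Most members did not pass 2-fold, 11 of 14 in the first list and 20 of 30 in the second. Their median log2 ratios were 0.05 and -0.32. Of 14 Eph receptors and ephrins with a ratio 3 were higher on HH9 and 0 lower. EPHA4, an Eph receptor of hindbrain segments, gave a signal of 889 on HH9, 149.8 on trunk titled HH16 and 281 on trunk titled HH19, 5.93-fold higher, and EPHA1 (254, 9.80 and 51.5) and EPHB3 (2359, 1135 and 1179) were at least 2.54-fold and 2.08-fold higher. Of 30 semaphorin, Slit and netrin genes 8 were lower and 2 higher. SEMA3C gave a signal of 101 on HH9, 1295 on trunk titled HH16 and 1390.4 on trunk titled HH19, 12.9-fold lower on HH9, PLXNA2 was 4.26-fold lower (143, 609 and 878), SEMA6D 4.08-fold (216, 879 and 631), SEMA6A at least 3.72-fold (82.2, 371 and 234) and SLIT2 3.09-fold (177, 547 and 361). SEMA3D, RGMA and PLXND1 followed with 2.68-fold, at least 2.52-fold and 2.47-fold. SEMA3F, the NRP2 ligand, was 3.54-fold higher (452, 128 and 225) and the netrin receptor UNC5C 2.53-fold (755, 298 and 703). NRP2 and its ligand SEMA3F were thus higher on HH9, and NRP1 and SEMA3C lower. The class 3 semaphorins SEMA3A, SEMA3B and SEMA3G did not pass 2-fold (log2 ratios of 0.44, -0.18 and -0.64).

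Genes of sensory neurogenesis were low on HH9. Of 26 listed genes 19 had a ratio, 14 were at least 2-fold lower on HH9 and 0 higher, and the median log2 ratio was -2.11. NEUROD1, a basic helix-loop-helix factor of differentiating neurons, gave a signal of 13.6 on HH9, 13295 on trunk titled HH16 and 1128 on trunk titled HH19, at least 133-fold lower on HH9. Its second probe set had a log2 ratio of -4.65. The brighter probe set of NEUROD1 and that of TLX3 were named only through the study's table of genes that differed between the trunk arrays. ISL1, the homeobox factor of sensory and other early neurons, gave a signal of 285 on HH9, 5215 on trunk titled HH16 and 530.4 on trunk titled HH19, 18.3-fold lower. TLX3 was at least 16.4-fold lower (56.2, 1634 and 97.8), NHLH1 6.26-fold (176, 1101 and 611), NHLH2 5.71-fold (236, 1347 and 706), NEUROG1, a proneural factor of sensory neurons, at least 5.45-fold (43.5, 544 and 151), PROX1 5.04-fold (126, 638 and 174) and EBF3 4.44-fold (111, 492 and 342). NEUROD1, ISL1 and TLX3 were also low on the array titled HH19 beside the array titled HH16. EBF1 (1904, 981 and 363) and RUNX1T1 (467, 489 and 463) differed by less than 2-fold.

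Autonomic genes were also mostly low on HH9 where they passed 2-fold. Of 12 with a ratio 5 were lower and 1 higher on HH9. GFRA1, a co-receptor of the RET ligand GDNF, gave a signal of 177 on HH9, 2239 on trunk titled HH16 and 810.3 on trunk titled HH19, 12.6-fold lower on HH9. MAB21L1 was at least 7.26-fold lower (7.55, 725 and 48.4) and TH, the first enzyme of catecholamine synthesis, 2.05-fold (173, 353 and 21.9). GATA3, active in sympathetic neurons and also in surface ectoderm, was at least 3.65-fold higher on HH9 (364, 72 and 135). DBH and SLC18A2 were under the floor on both arrays. On titled HH19 neither MAB21L1 nor TH reached the floor, and on HH9 only TH did.

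Neuronal cytoskeleton and adhesion genes had 35 of 39 listed with a ratio, 22 of them at least 2-fold lower on HH9 and 0 higher, with a median log2 ratio of -1.42. STMN2, a microtubule regulator of growing axons, gave a signal of 142 on HH9, 4911 on trunk titled HH16 and 1319.6 on trunk titled HH19, 34.6-fold lower. ELAVL4, an RNA binding protein of neurons, was 22.0-fold lower (114, 2517 and 988), the neurofilament gene NEFM 19.7-fold (201, 3949 and 2514), ALCAM, a cell adhesion molecule, 12.2-fold (241, 2954 and 535), ELAVL2 8.02-fold (156, 1248 and 345), DCLK1 6.74-fold (209, 1406 and 888), NEFL 6.66-fold (292, 1947 and 1038) and RTN1 5.62-fold (488, 2744 and 975). For these 8 genes the array titled HH19 lay between HH9 and the array titled HH16. NEFM had 3 probe sets with a ratio, with log2 ratios from -4.30 to -1.14. TUBB3 was 1.93-fold lower (5174, 9983 and 4477), and STMN1 (23648, 23947 and 28134), DCX (2372, 1955 and 1419) and DPYSL2 (5477, 5013 and 4301) were close on HH9 and titled HH16.

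**Figure D4:**
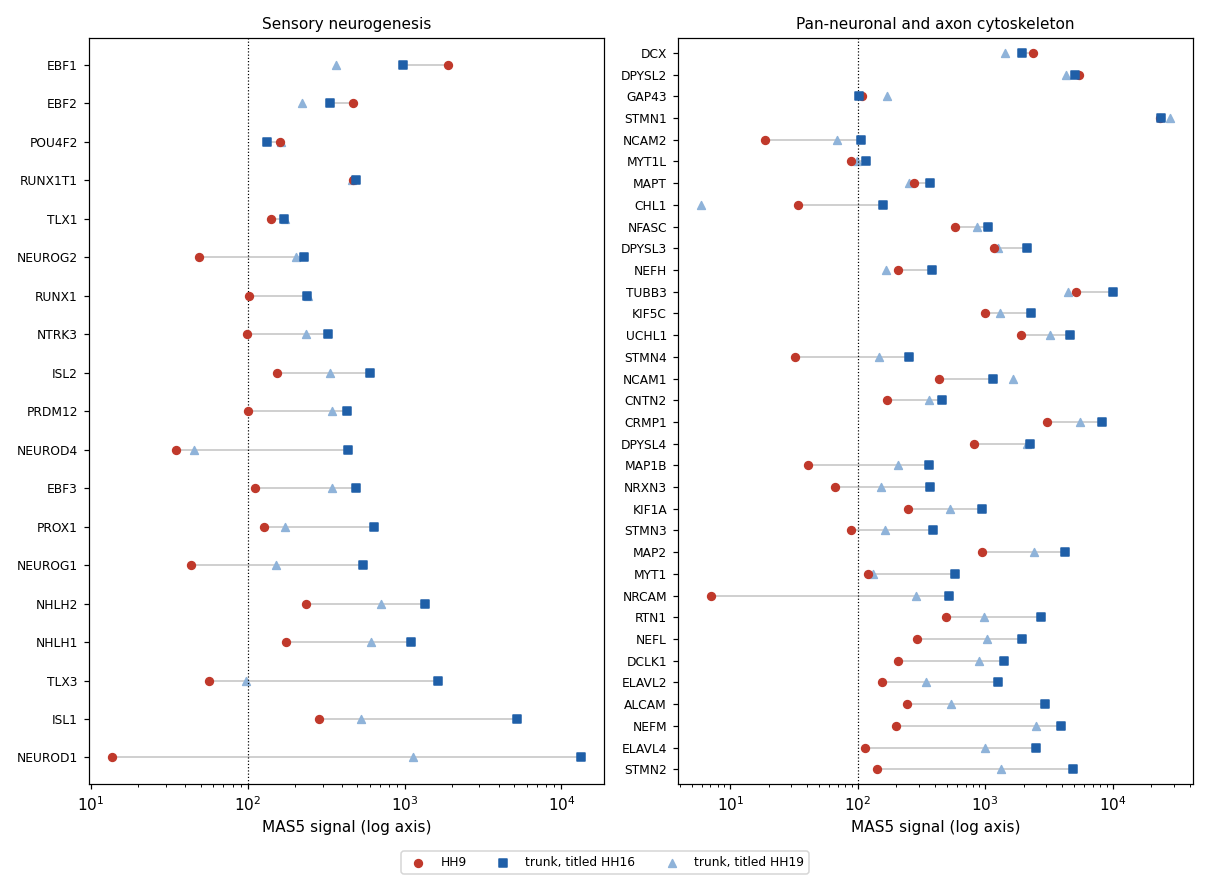
MAS5 signals (log axis) of the sensory neurogenesis and pan-neuronal genes with a ratio that are reported here, sorted by the log2 ratio of HH9 over trunk titled HH16, on the 3 arrays, with the floor as a dotted line. HH9 lies far to the left of trunk titled HH16 for NEUROD1, ISL1, TLX3 and STMN2, and STMN1 and DPYSL2 sit close together.

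Synaptic, granule and neuropeptide genes had 10 of 18 lower and 1 higher on HH9. CHGA (chromogranin A of secretory granules) gave a signal of 159 on HH9, 5639 on trunk titled HH16 and 792 on trunk titled HH19, 35.4-fold lower, PENK (proenkephalin) was 12.2-fold lower (141, 1724 and 338), SYP (synaptophysin) 8.24-fold (208, 1711 and 1698) and SNAP25, of vesicle fusion, at least 5.0-fold (61.2, 499 and 95.3). SST1, annotated as somatostatin, was the exception at 5.89-fold higher on HH9 (1224, 208 and 37.7). The 3 probe sets of CHGA with a ratio did not run together in size (log2 ratios from -5.14 to -0.10). Of 13 ion channel genes with a ratio CACNA2D1 (159.5, 864 and 929) and CACNA1D (75.3, 346 and 407), both calcium channel subunits, were lower by 5.42-fold and at least 3.46-fold, and 0 were higher. PPP1R17, a phosphatase inhibitor, and TAGLN3, a neuronal actin binding protein, stood outside the lists and were among the 20 largest ratios on the trunk side, at least 43.1-fold (52.8, 4305 and 297) and at least 22.1-fold (14.4, 2209 and 926).

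Pigment and glial precursor genes that passed 2-fold were lower on HH9, in smaller numbers. Of 12 melanoblast genes with a ratio 6 were lower and 0 higher, with a median log2 ratio of -1.0. EDNRB2 is given above. MLANA, a melanosome protein, was at least 7.74-fold lower (25.9, 773 and 72.6), TRPM1 at least 3.11-fold (23, 311 and 64.6) and MITF, the master factor of melanocytes, 2.72-fold (239, 651 and 453). DCT (127, 129.9 and 135) and PMEL (449, 398 and 38.1) were near equal on HH9 and titled HH16. Of 12 glial genes with a ratio 4 were lower and 0 higher, and 8 did not pass 2-fold. Their median log2 ratio was -0.15, and 6 of the 12 had a log2 ratio above 0. UGT8, a galactolipid enzyme of myelin, was at least 5.94-fold lower (41.3, 593 and 204), MBP 5.53-fold (208, 1151 and 485) and PMP22 2.22-fold (485, 1079 and 944), while FABP7, a fatty acid binding protein of radial and crest glia, was near equal (9032, 8292 and 8267). LOC395159, which the reference table also calls SERAF, a secreted EGF-repeat protein of avian Schwann cell precursors, gave a signal of 175 on HH9, 20779 on trunk titled HH16 and 15490.1 on trunk titled HH19, 118-fold lower on HH9.

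Of 13 neural tube progenitor factors with a ratio 5 were at least 2-fold lower on HH9, 0 were higher and the rest did not pass 2-fold. NKX6-1, of the ventral neural tube, gave a signal of 190.0 on HH9, 2602 on trunk titled HH16 and 3172 on trunk titled HH19, 13.7-fold lower on HH9. SOX2, of neural progenitors, was 3.17-fold lower (184, 583 and 515), and the interneuron and motor neuron factors LHX1, MNX1 and LHX3 were at least 2.99-fold (99.6, 298 and 432), at least 2.13-fold (14.9, 213 and 272) and 2.05-fold (170.4, 349 and 259) lower. PAX6 (196, 362 and 1965), OLIG2 (369.9, 530.2 and 1752) and SOX3 (905, 920.5 and 2595) differed by less than 2-fold here and were brighter on the array titled HH19. The summed signal of 12 neural tube markers named on the array was 3936 on HH9, 9396 on titled HH16 and 16165 on titled HH19. SLC18A3, the vesicular acetylcholine transporter, was at least 11.6-fold lower on HH9 (99.6, 1161 and 918). The study describes the tissue of both sides as freed of neural tube and notochord. The part of neural tube cells in the neuronal and Notch values was not tested.

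Genes of early, uncommitted cells were partly higher on HH9. Of 14 pluripotency and early-stage genes with a ratio 3 were higher and 2 lower. CFC1, a Nodal co-receptor of the early embryo, gave a signal of 4108 on HH9, 496 on trunk titled HH16 and 260.5 on trunk titled HH19, 8.28-fold higher on HH9. LIN28A, an RNA binding protein that blocks let-7, was 2.50-fold higher (4799.9, 1916 and 2414) and SALL4 2.25-fold (3807, 1692 and 2856). SOX2, given above, and HMGA2 (2.32-fold, 728, 1689.7 and 1592) were lower. DNMT3B differed by 1.58-fold (7413, 4692 and 6467).

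Cell cycle drivers differed little, and several inhibitors were lower on HH9. Of 28 drivers 1 was higher, CCNE1 (2.40-fold, 900.4, 375 and 538), and 1 lower, CDK6 (3.33-fold, 606, 2016 and 839.5), with a median log2 ratio of 0.11 as deposited and -0.0045 after quantile normalization. MKI67 (4901, 5130.3 and 5635), TOP2A (7672, 7759.7 and 9125) and PCNA (16984, 15579 and 17325) differed by less than 1.1-fold. Of 13 inhibitors 5 were lower and 0 higher, with a median of -0.89. They were GADD45G (3.13-fold, 458, 1431 and 1288), BTG2 (2.48-fold, 543, 1347 and 1344), CDKN2A (at least 2.46-fold, 55.8, 245 and 84.3), CDKN1B, which holds cells out of the cycle, (2.44-fold, 849.7, 2074 and 1730.0) and GADD45A (2.28-fold, 2202, 5016 and 4088).

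Genes common to all cells differed little. Of 60 ribosomal protein genes 59 had a log2 ratio above 0 and 0 passed 2-fold, with a median of 0.27 and a range from -0.12 to 0.83. The median was 0.27 over 13 reference genes and 0.35 over 20 glycolysis enzymes, of which PFKM (at least 2.87-fold, 286, 98.6 and 228) was higher and PDK4 (2.67-fold, 190.5, 509 and 315) and ENO2, the neuronal enolase, (2.14-fold, 154, 329 and 379) were lower. The spike-in probe sets, which hold no chicken RNA, were brighter on HH9 by a median of 1.16-fold, in the same direction. After quantile normalization the medians were 0.01 for the ribosomal and -0.01 for the reference genes. With each array centred on its median they were 0.43 for the ribosomal and 0.43 for the reference genes, so their size depends on the scaling. FABP3, a fatty acid binding protein of muscle and heart, gave a signal of 6007 on HH9, 208 on trunk titled HH16 and 137 on trunk titled HH19, 28.9-fold higher on HH9, while FABP5 was 4.73-fold lower (476, 2250.3 and 1166). AKR1D1, a steroid reductase, was at least 24.0-fold higher (2393, 44.1 and 251). DIO3, which inactivates thyroid hormone, was 16.5-fold lower (625, 10293 and 17524).

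Markers of other cell types moved with some of these groups. Of 14 ectoderm and epithelial markers with a ratio 5 were higher on HH9 and 0 lower, and the summed signal of the 17 named on the array was 16158 on HH9, 5091 on titled HH16 and 7345 on titled HH19. They were KRT24 (13.7-fold, 1967, 144 and 465), CLDN1 (10.2-fold, 2112, 208 and 896), KRT7 (3.58-fold, 996, 279 and 648), DLX5 and GATA3. DLX5, also a mesenchymal crest factor, gave the largest part of the sum on HH9. EPCAM (1559, 1016 and 1455) and CDH1 (223, 122 and 264) differed by less than 2-fold, as did TP63 in the other direction (368, 600.0 and 328). The splicing factor of epithelia ESRP2, outside the list, was at least 7.52-fold higher (751, 59 and 234). Of 10 sclerotome and cartilage markers 5 were higher and 0 lower, with summed signals of 26562, 8627 and 11284, of which COL2A1 gave the largest part. These 5 were TWIST1, SOX9, COL9A1, COL9A2 and COL2A1, of which TWIST1 and SOX9 are also crest specifiers, while PAX9 (120.2, 109 and 117) and MATN1 (209.7, 208 and 111) differed by less than 2-fold. Of 6 notochord and floor plate markers with a ratio 1, COL9A1, was higher and 0 were lower. The summed signal of the 7 named on the array was 7366 on HH9, 2680 on titled HH16 and 2143 on titled HH19. The part of cells other than crest in the matrix, cadherin and CLDN1 values was not tested.

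Muscle and heart markers gave single high genes. ACTC1, the cardiac actin also made in early muscle, was at least 9.35-fold higher on HH9 (934, 82.1 and 178), TNNC2 at least 2.92-fold (291, 4.09 and 15.5), TNNT2 at least 2.21-fold (221, 93.9 and 80.8) and MYL2 at least 2.09-fold (208, 89.9 and 18.3). MYLK, myosin light chain kinase, stood outside the muscle and heart marker lists. It gave a signal of 7213 on HH9, 524 on trunk titled HH16 and 1238 on trunk titled HH19, 13.8-fold higher on HH9. MYLK had 4 probe sets with a ratio, with log2 ratios from 0.33 to 3.78. TNNT3 (4.83-fold, 147, 711 and 188) and DES (at least 4.66-fold, 34.8, 465 and 540.4) were lower. MYOD1, MYOG, MYF5, MSGN1 and GATA6 were under the floor on both arrays, and NKX2-5 was at least 1.59-fold higher (159, 24.8 and 20.8). Globin genes were low, with HBA1 and HBBR under the floor on both and HBE 2.35-fold higher (439, 187 and 375). Of 13 endothelial markers ERG (at least 4.13-fold, 412, 21.1 and 98.1) and SOX18 (at least 2.47-fold, 247, 82.7 and 276) were higher and KDR lower, while CDH5 was at least 1.35-fold higher (135, 86 and 346) and PECAM1 (214, 222 and 158) differed by less than 2-fold. Of 8 macrophage and blood markers with a ratio SPI1 was lower (at least 2.16-fold, 67.8, 216 and 115).

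Immediate early genes, which respond within minutes to handling and growth signals, were lower on HH9. Of 11 with a ratio 8 were lower and 1 higher, with a median log2 ratio of -1.18. JUN gave a signal of 1186 on HH9, 6936 on trunk titled HH16 and 2189.8 on trunk titled HH19, 5.85-fold lower, EGR1 was 5.06-fold lower (201, 1018 and 1849), CCN2 5.85-fold (1704, 9975 and 14503) and CYR61 4.20-fold (1174, 4930.2 and 5924), while FOS was near equal (153, 129.7 and 89) and MYC was higher, as given above. Of 20 heat shock and unfolded protein response genes 4 were lower and 1 higher, with HSPB1 at least 3.85-fold lower (63.4, 384 and 453), ATF3 3.48-fold lower (144, 500.4 and 1120.5) and ASNS 2.35-fold higher (2179.9, 926 and 1869). The dissections of head and trunk differed, and their part in these values was not tested.

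**Figure D5:**
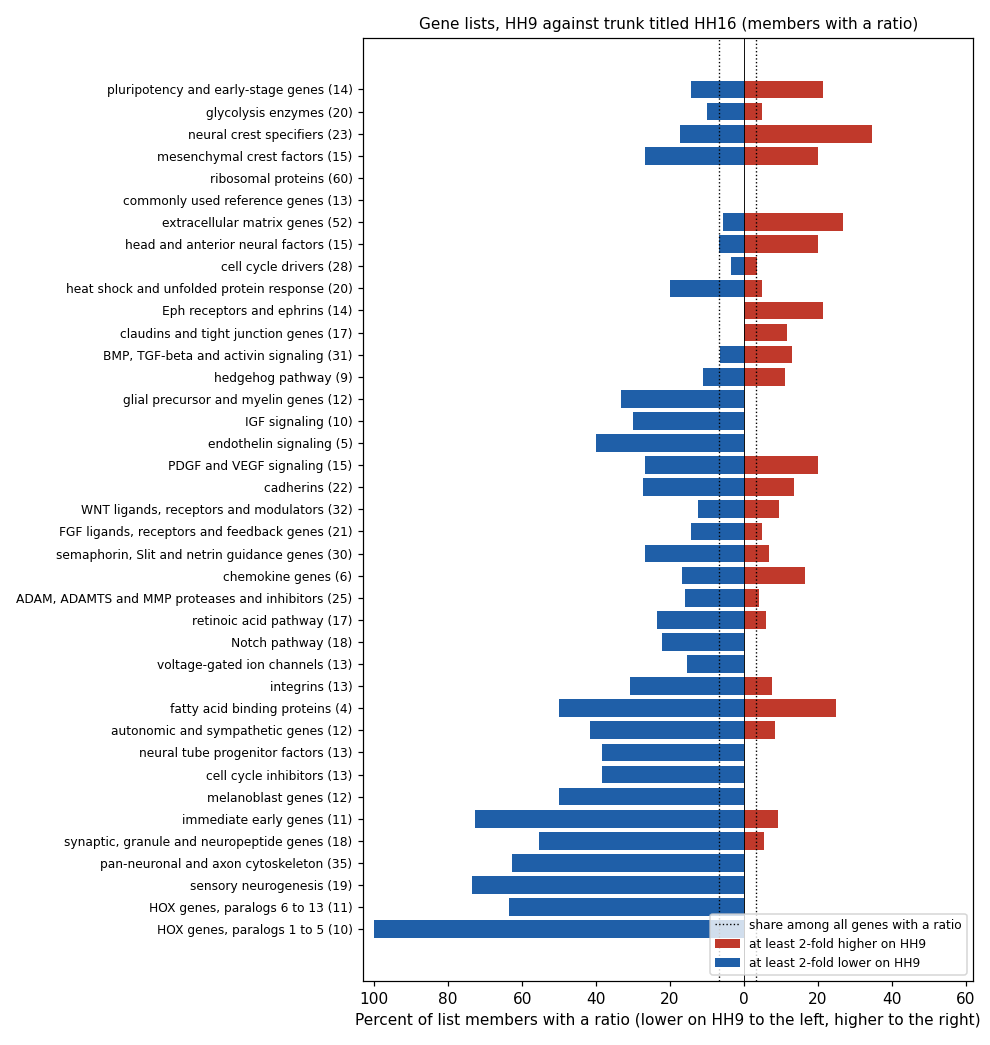
For each of 39 gene lists the bars give the percent of its members with a ratio (their number in brackets) that were at least 2-fold higher (right, red) or lower (left, blue) on HH9 than on trunk titled HH16, ordered by the median log2 ratio. Dotted lines mark the shares among all genes, 3.18% and 6.77%. HOX, sensory and pan-neuronal lists lie at the bottom with long bars to the left. The immediate early genes, with 8 of 11 lower, also have a long bar to the left. It is longer than the bars of the pan-neuronal list (22 of 35) and of the HOX list with the higher paralog numbers.

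The study names more genes from its arrays than the 28 listed here. All 28 were found with a ratio, 6 at least 2-fold higher on HH9 and 14 lower. They were chosen by the study on these arrays, so the count is not independent of them. Higher were TWIST1, CFC1, FZD7, FGFR2, GATA3 and SPP1 (at least 2.47-fold, 246, 90 and 562). Among the lower were STMN2, ELAVL4, ISL1, TLX3, SEMA3C, MAB21L1, ADAM12, PROX1, SNAP25, TNNT3, CRABP1, MSX2 and ISL2 (3.93-fold, 154, 605 and 332). POSTN (199, 219.8 and 712) and RARB differed by less than 2-fold. On one array under the floor, so with minimums that did not reach 2-fold, were FST (111, 71.2 and 193), TBX22 (188, 13.1 and 145), ALDH1A3 (143, 71.5 and 251), ADCYAP1 (45.5, 171 and 59.7) and DIO2 (108, 48.4 and 163). Several of these, such as POSTN and FST, were brightest on the array titled HH19. For HH9 the study describes TBX22, CFC1, FZD7 and TLX3 as high and then reduced, and ADCYAP1, SNAP25 and STMN2 as the reverse. Here TBX22, CFC1 and FZD7 were brightest on HH9, and ADCYAP1, SNAP25 and STMN2 dimmest. TLX3, unlike in that description, was also dimmest on HH9. The study gives POSTN, SPP1, FGFR2, TBX22, SEMA3C, RARB, MSX2, FST, DIO2 and ALDH1A3 as lower at HH19 than at HH16. Here the array titled HH19 was brighter for each of them. For SEMA3C, however, both trunk arrays were near equal, unlike the large drop that the study reports. TLX3, ISL1, ISL2, MAB21L1, STMN2, SNAP25, ADAM12, ADCYAP1, CFC1, ELAVL4, PROX1 and TNNT3, given as higher at HH19, were brighter on the array titled HH16. FZD7, CRABP1, TWIST1 and GATA3, also given as higher, were brighter on the array titled HH19. TWIST1 gave 15.2 on titled HH16 and 516 on titled HH19. By direction, most of the genes listed here thus ran with the age fields of the trunk arrays and not with their titles. The study chose these genes on the same arrays, so their direction cannot tell independently which label is right.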

How the data were processed

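RNA of HNK1-sorted NCC was hybridised to the Affymetrix chicken genome array, and the arrays were run and normalized for the authors by an outside company. What the authors deposited are linear intensity values, named MAS5 signals in the labels. For MAS5 neither version nor settings were found in the sources used here. The methods describe 3 biological replicates per stage, and no source used here tells if a column holds one of them, a pool or their mean. Of 38535 probe sets 96 controls were left out. Gene names came from the platform annotation, where 27168 probe sets carry 1 gene and 177 several. The GRCg7b gene table held the IDs of 26853 and changed 0 symbols. Another 14 probe sets were named from a supplementary table of genes that differed between the trunk arrays, so those names lean to such genes. After both steps 11080 probe sets had no gene. Some genes are counted in their lists but not reported here by name.

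Signals were floored at 99.8, and log2 ratios of HH9 over trunk titled HH16 were taken per probe set. A gene was represented by the probe set that was brightest on average (log2) over both arrays. Named are, per direction, the 20 largest ratios among genes whose brighter signal was at least 537, up to 8 members per list and direction past 2-fold, list members under 2-fold as counterparts, HOX genes and genes the study names. Others (LOC395159's older name, SLC18A3, DIO3 and ESRP2 outside the lists, and the closing groups) were chosen after their values were seen, as were 4 matches through older symbols. The members, the 39 gene lists and the 13 marker lists were chosen with earlier results of these data known. No sequences were printed, and the ratios were tested on simulated data. Alternatives were median centring, quantile normalization, other floors, a 3-fold threshold, fewer probe sets and other probe set choices. Computations used Python 3.11.15, numpy 2.4.6, pandas 2.3.3 and matplotlib 3.10.9. The number of arrays limits the precision.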

Additional observations from a re-analysis of the deposited data

How the results depend on the processing

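With 1 array a side there is no replicate to leave out, and the scale, floor and stage labels limit every fold. No paired analysis was possible because each group is 1 array. As deposited, 341 genes were higher and 726 lower on HH9 and 721 and 1704 probe sets. With the floor at the 20th percentile (32.1) there were 603 and 1150.0 genes and 1869 and 3448 probe sets, at the 60th percentile (235) 224 and 462 genes and 431 and 903 probe sets, with no floor 871 and 1415 genes and 3640.0 and 5419 probe sets, and at 3-fold 113 and 285 genes and 215 and 614 probe sets. The other settings stayed within 1.5 times of the deposited counts. Centring each array on its median gave 498 and 583 genes and moved the median log2 ratio of all genes to 0.16. Of 263 genes past 2-fold that belong to the lists or to the largest ratios, 242 were still past 2-fold in the same direction after centring, 247 after quantile normalization, 245 by the median over probe sets and 194 of 253 with the higher floor. ETS1 reversed to a log2 ratio of -0.34 without probe sets that may bind several transcripts and to -0.017 by the median over its probe sets, and SCG5 reversed to 0.073 without such probe sets.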

Other observations

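Gene groups picked after their values were seen are given here as values only. Of 17 sterol synthesis genes with a ratio 5 were at least 2-fold higher on HH9 and 0 lower, with a median log2 ratio of 0.63 against 0.01 over all genes. FDPS, which makes farnesyl diphosphate, was 3.40-fold higher (2756, 811 and 518 on HH9, trunk titled HH16 and trunk titled HH19), MVD 3.18-fold (2193, 690.2 and 1107), HMGCS1, the first committed step, 2.54-fold (2928, 1151 and 1080.1), NSDHL 2.36-fold (2362, 1001 and 793) and SQLE 2.12-fold (7108, 3358 and 2597). MVK (1899, 1754 and 1547) and SREBF2 (2255, 1706 and 1566) differed by less than 1.4-fold.

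Partners of HOX proteins and teashirt genes of the trunk were lower on HH9 in 5 of 11 with a ratio and higher in 0. MEIS1, a homeobox partner of HOX proteins, was 11.8-fold lower (111, 1303 and 1070.1), MEIS2 3.84-fold (142, 546 and 560.0), TSHZ1 at least 7.93-fold (35.8, 792 and 550.2), TSHZ3 at least 4.04-fold (66.9, 404 and 486) and TSHZ2 at least 2.00-fold (84, 199.9 and 167). PBX3 (1242, 1092 and 812), PKNOX1 (167, 193 and 188) and CDX2 (469, 536 and 769) differed by less than 2-fold.

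The gap junction genes GJA1, a connexin of crest, and GJB1 were 4.01-fold (5196, 1295 and 1525) and 4.29-fold (2636, 614 and 892) higher on HH9, and the other 3 of 5 with a ratio differed by less than 2-fold.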
